A study of Mus musculus with 9 samples.

Results

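The genes described here are 39 markers of macrophages and other immune cells, chosen by symbol from the count table of RNA from mouse pancreatic islets. Of these symbols 37 had a row among the 23329 genes of the table, and Adgre1 and Spi1, which had none, were dropped. The 37 genes cover surface receptors, Fc receptors and their adaptors, complement C1q, antigen presentation, lysosomal and effector proteins, lymphocyte genes and neutrophil calgranulins. Polyadenylated RNA was sequenced from islets of male mice in 5 mutant libraries, whose genotype the labels give as Pdx1A4 without explaining it, and in 4 control libraries of genotype Pdx1+/-. The labels name no other allele, no treatment and no age. They also leave unsaid whether each library is its own animal, and p-values therefore speak for the spread among these 9 libraries, part of which may be technical. Pdx1, the homeodomain factor after which the genotypes are named, stood below every control in each of the 5 mutants, with 12.9 ± 6.91 CPM in mutants and 29.5 ± 5.54 CPM in controls (SD, n = 5 and 4).

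Islets are endocrine clusters with a small resident population of macrophages. These cells depend on signals through the receptor Csf1r, take up debris and immune complexes through scavenger and Fc receptors, secrete the complement component C1q and lysozyme, and present peptides on MHC class II. Immune cells are a minor part of islet RNA beside the hormone transcripts of endocrine cells, and islet isolation can carry over acinar and ductal cells of the exocrine pancreas.

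Totals were 7186462 to 9163253 counts in mutants and 6092010 to 7375376 in controls, of which the 37 genes together held 3302 to 5302 counts in mutants and 1546 to 5743 in controls. The 7 hormone genes took 0.0691% to 7.99% of counts in mutants and 16.9% to 21.0% in controls, and 30 acinar genes took 16.2% to 31.0% in mutants and 3.38% to 5.76% in controls. Mutants 2 and 3 stood apart, with the lowest hormone shares (0.0691% and 1.21%). Summed over the 34 genes other than Cd14, Cd74 and Lgals3, the immune markers stood at 206, 25.2, 55.8, 74.9 and 44.6 in mutants 1 to 5 and 114, 102, 99.7 and 170.2 in controls 1 to 4, in CPM, counts relative to the TMM-adjusted size of each library. Mutant 1 had the highest and mutant 2 the lowest sum of all 9 libraries, so the mutant libraries spanned the whole range. The counts of mutant 3 lay close to a sum of 15% of mutant 1 and 85% of mutant 2, and some results are therefore also given without mutants 2 and 3. Of the called genes named here, 6 lost their call without both libraries, not all of which are marked below.

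**Figure D1:**
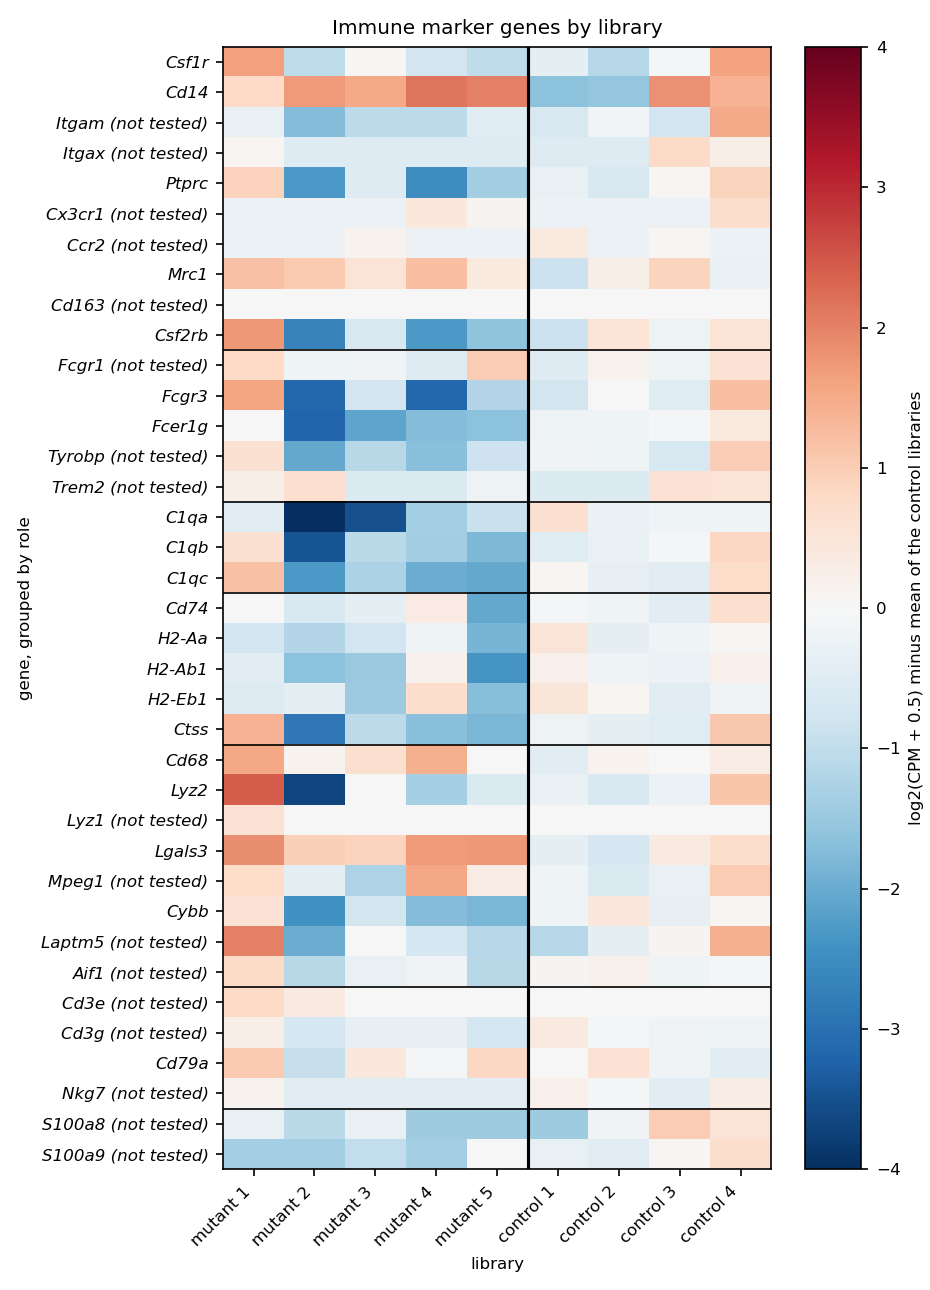
The 37 immune marker genes (rows, grouped by role, with genes below the low-count filter marked as not tested) in each library (columns, mutants left of the line, controls right), coloured by log2(CPM + 0.5) minus the mean of the 4 control libraries. Most macrophage genes are high in mutant 1 and control 4 and low in mutant 2, whereas Lgals3, Cd14, Cd68 and Mrc1 are each above their control mean in all 5 mutants.

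Most of the markers did not separate the genotypes, and those that came nearest went in opposite directions. Of the 37 genes 20 passed the low-count filter and were tested (edgeR quasi-likelihood test, adjusted p under 0.05). Of these 1 was called higher in mutants, Lgals3, and 0 were called lower, where 20.6% of all 12402 tested genes were called higher and 11.8% lower. Of all calls 63.6% were higher, and 51.8% with RLE scaling. At an unadjusted p under 0.05, 2 of the 20 were higher and 3 lower, where 5761 of all 12402 genes passed in either direction. DESeq2, which gave 31 of the 37 genes an adjusted p, called 1 higher and 2 lower, where it called 16.5% of all genes higher and 16.7% lower. With sample quality weights, limma-voom called 1 of the 20 higher and 6 lower, where it called 24.3% of all genes higher and 18.5% lower. The median log2 fold change was -0.51 over the 20 genes and 0.04 over all tested genes. For 1 of the 20 genes, Lgals3, the lowest mutant exceeded the highest control, and for 1, C1qa, the highest mutant lay under the lowest control, where the shares over all tested genes were 18.5% and 14.7%. Genes that passed the filter through only 1 of the groups had to differ, so these counts describe the genes tested and not all 37.

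The count of lower genes changed with the libraries and the tool. Without mutant 1 edgeR called 8 of 19 tested genes lower, namely C1qa, C1qb, C1qc, Csf2rb, Ctss, Cybb, Fcer1g and Ptprc, where it called 15.3% of all genes lower in that comparison, and the median log2 fold change was -1.22. Without control 4 the median was -0.09 and 0 of 20 tested genes were called lower, also at an unadjusted p under 0.05. In that fit 5276 of all 12567 genes had an unadjusted p under 0.05 in either direction, and 67.7% of all calls were higher. The fits that left out 1 library, this one among them, called 699 to 1865 of all genes lower. Without mutants 2 and 3 edgeR called 1 of 23 tested genes higher, Lgals3 at 1.63 (edgeR adjusted p = 0.0110), and 0 lower (1 at an unadjusted p under 0.05). There 4554 of all 12571 genes had an unadjusted p under 0.05 in either direction, and 52.4% of all calls were higher. Without mutant 4 it called 2 genes lower, H2-Aa and H2-Ab1, against 11.9% of all genes. With the endocrine score, the mean log2 CPM of 26 granule genes, as a covariate, of which genotype itself explained 50.5%, 9 of the 14 genes with a log2 fold change below 0 turned to above 0, and the median over the 20 genes was 0.84. In whole-tissue RNA, fewer cells of a type and less RNA per cell cannot be told apart.

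**Figure D2:**
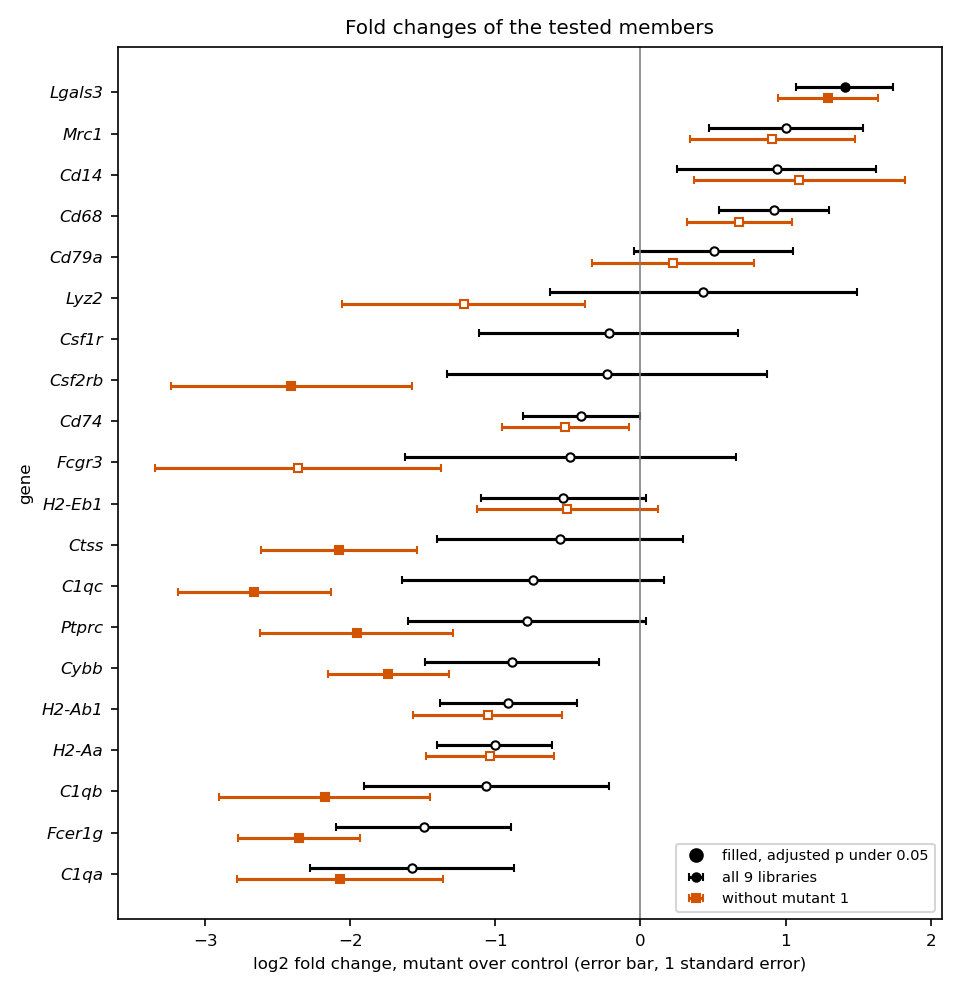
Log2 fold changes of mutant over control (horizontal axis, error bars 1 standard error) for the 20 tested genes (vertical axis), with all 9 libraries (circles) and without mutant 1 (squares). Filled symbols mark an edgeR adjusted p under 0.05, and Csf1r has no square because it did not pass the low-count filter without mutant 1. Lgals3 is filled in both fits, and 8 genes are filled only without mutant 1.

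Lgals3 was the member called higher. It encodes galectin-3, a lectin that binds beta-galactosides, which macrophages make in quantity and which epithelial cells are also known to make, and lies on chromosome 14, positions 47373860 to 47386167 of GRCm38. Lgals3 had 80.5, 42.6, 40.8, 72.4 and 74.0 CPM in mutants 1 to 5, against 16.3, 13.5, 28.2 and 35.4 CPM in controls 1 to 4. The lowest mutant lay above the highest control, and controls 3 and 4 lay above controls 1 and 2. Its log2 fold change was 1.41 (standard error 0.33, edgeR adjusted p = 0.0130), and the call held in each of the 9 fits that left out 1 library, with log2 fold changes from 1.13 to 1.68. The 17 genes of the ductal marker list summed to 17971 to 30662 CPM in mutants and 4794 to 13648 CPM in controls, while their median log2 fold change was 0.07. Of these 17 genes 7 were called higher and 2 lower, where 20.6% of all tested genes were called higher and 11.8% lower. Within mutants the ductal sum was lowest in mutant 1, where Lgals3 was highest. Among controls the sum was 5036 and 4794 CPM in controls 1 and 2 and 13648 and 9177 CPM in controls 3 and 4, and Lgals3 was also lower in controls 1 and 2. The part of ductal or acinar cells in the Lgals3 result was not tested.

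Cd68 and Cd14, further genes often used as macrophage markers, did not separate the groups. Cd68, a sialomucin of late endosomes and lysosomes, had 18.6, 6.74, 9.71, 17.0 and 6.15 CPM in mutants 1 to 5, against 4.24, 6.73, 6.09 and 7.49 CPM in controls 1 to 4. Mutants 1, 3 and 4 were above all controls while mutants 2 and 5 lay among them, and the log2 fold change was 0.92 (standard error 0.38, edgeR adjusted p = 0.0821). Cd14, the co-receptor that hands lipopolysaccharide to Toll-like receptor 4, had 207, 386, 344, 529 and 480.3 CPM in mutants 1 to 5, against 37.9, 40.1, 421 and 313 CPM in controls 1 to 4. The mutants lay within the range of the controls except for mutants 4 and 5, and the controls fell into a low pair, 1 and 2, and a high pair, 3 and 4. The log2 fold change of Cd14 was 0.94 (standard error 0.69, edgeR adjusted p = 0.306).

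Cd14 alone held 15.4% of the members' counts in control 1 (95% Wilson interval 13.9% to 17.2%, counting error only) and 69.2% in control 3 (68.0% to 70.5%). In mutants its share was between 36.1% in mutant 1 (34.7% to 37.5%) and 77.8% in mutant 5 (76.6% to 78.9%). In mutant 2, where Lyz2, Fcgr3, C1qb, Csf2rb, Tyrobp and Laptm5 had 0 counts, Cd14 had 2862 counts, Cd74 388, Lgals3 316 and Cd68 50. That library thus held reads of these 4 genes without reads of the other 6.

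**Figure D3:**
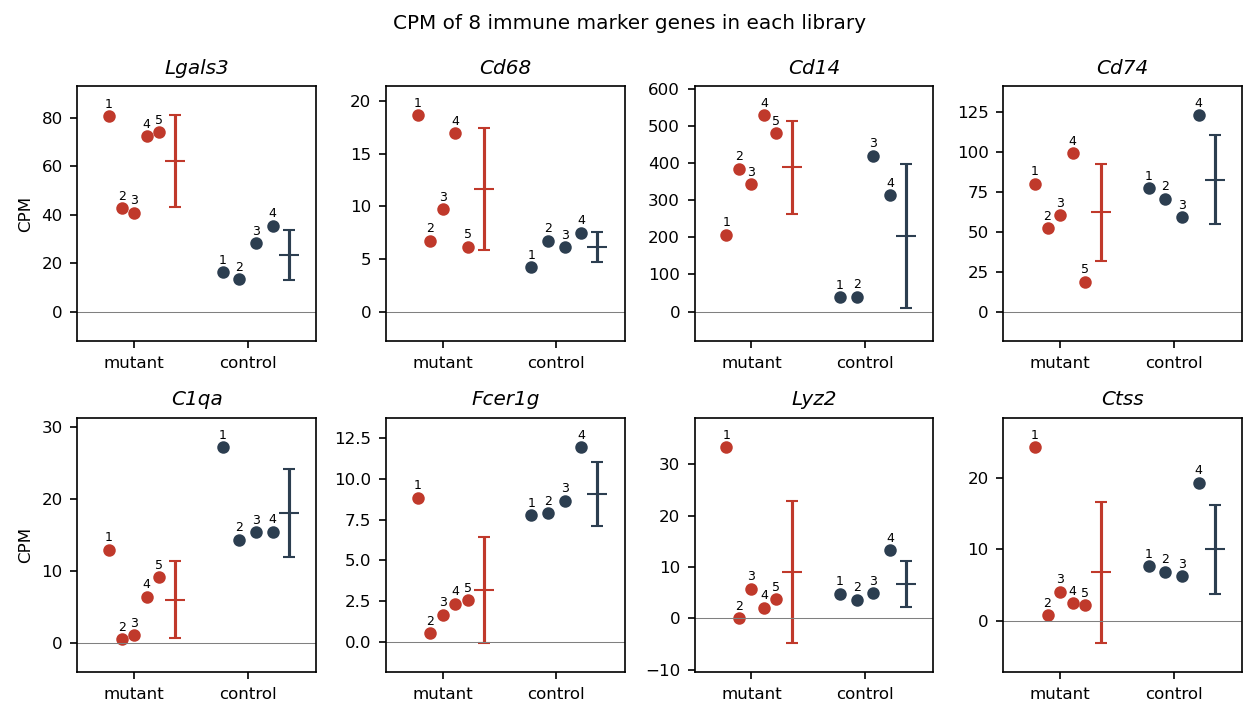
CPM (vertical axis, linear, one scale per panel) of 8 immune marker genes in each mutant (left, red) and control (right, dark) library, numbered by replicate, with the mean and 1 SD (bar) beside the points. Lgals3 is the gene whose mutants all lie above the controls and C1qa the one whose mutants all lie below, and the mutant SDs of Lyz2 and Ctss are set by mutant 1.

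The C1q genes encode the chains of the recognition molecule of the classical complement pathway, which tissue macrophages are a main source of, and lie side by side on chromosome 4. C1qa (chromosome 4, positions 136895916 to 136898844 of GRCm38) had 13, 0.539, 1.06, 6.44 and 9.10 CPM in mutants 1 to 5, against 27.2, 14.3, 15.3 and 15.4 CPM in controls 1 to 4. All 5 mutants lay below all controls, with mutants 2 and 3 lowest, yet the log2 fold change of -1.57 (standard error 0.70, edgeR adjusted p = 0.104) missed the threshold. C1qb had 7.99, 0, 2.12, 1.61 and 1.07 CPM in mutants 1 to 5, against 3.42, 4.1, 4.68 and 9.39 CPM in controls 1 to 4, and C1qc had 7.99, 0.270, 1.06, 0.439 and 0.401 CPM in mutants 1 to 5, against 3.42, 2.49, 2.23 and 5.70 CPM in controls 1 to 4. Mutant 1 lay within the control range of C1qb and above that of C1qc, the other mutants lay below both ranges, and the log2 fold changes were -1.06 (standard error 0.84, edgeR adjusted p = 0.342) and -0.74 (standard error 0.91, edgeR adjusted p = 0.542). Without mutant 1 all 3 were called, at -2.07 (edgeR adjusted p = 0.0459), -2.18 (edgeR adjusted p = 0.0414) and -2.66 (edgeR adjusted p = 0.00593). Per kilobase of exon, C1qa stood at 5.79 ± 5.10 in the 5 mutants and 17.4 ± 5.87 in the 4 controls (± SD), against 2.35 ± 2.88 in the 5 mutants and 4.96 ± 2.49 in the 4 controls (± SD) for C1qb and 1.05 ± 1.73 in the 5 mutants and 1.79 ± 0.818 in the 4 controls (± SD) for C1qc, in CPM per kb. The protein holds equal numbers of the 3 chains, whereas C1qa had the highest level per kilobase in both genotypes.

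The promoter of C1qc is shown beside those of Fcgr3 and Lgals3, as examples with a match to a myeloid motif (C1qc, Fcgr3) and without one (Lgals3, the member called higher). Each is the stretch of 250 bases before the start in RefSeq (GRCm38.p6), written 5′ to 3′ on the gene's strand, with capitals marking GAGGAAG, the core recognised by PU.1, or its reverse complement CTTCCTC. PU.1, the product of Spi1, is a transcription factor that myeloid cells require.
C1qc (chr4:136892915-136893164, minus strand): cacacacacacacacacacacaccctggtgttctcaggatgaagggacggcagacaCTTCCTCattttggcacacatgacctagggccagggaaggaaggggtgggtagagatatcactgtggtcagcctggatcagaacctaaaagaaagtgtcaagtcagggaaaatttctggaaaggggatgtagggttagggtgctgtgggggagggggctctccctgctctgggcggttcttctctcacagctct
Fcgr3 (chr1:171059404-171059653, minus strand): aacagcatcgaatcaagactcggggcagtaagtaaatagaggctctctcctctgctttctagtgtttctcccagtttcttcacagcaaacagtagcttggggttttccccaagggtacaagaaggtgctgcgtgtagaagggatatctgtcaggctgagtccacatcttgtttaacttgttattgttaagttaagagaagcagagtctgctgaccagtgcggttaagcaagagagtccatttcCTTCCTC
Lgals3 (chr14:47373610-47373859, plus strand): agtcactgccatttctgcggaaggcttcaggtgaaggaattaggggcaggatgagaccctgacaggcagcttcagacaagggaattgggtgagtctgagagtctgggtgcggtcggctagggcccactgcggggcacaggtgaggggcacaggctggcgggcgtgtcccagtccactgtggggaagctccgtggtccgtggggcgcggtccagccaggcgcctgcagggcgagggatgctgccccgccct
The motif was searched on both strands in windows of 300 bases, from 250 before to 50 after the start. It was found in 9 of the 30 members with a promoter in the table (30.0%) and in 15.4% of all 27025 genes there. The 9 members are Itgam, Mrc1, Fcgr1, Fcgr3, Trem2, C1qc, Ctss, Laptm5 and S100a8. The Lgals3 window holds no match. A match describes the letters and is not a measured binding site.

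The row Sfpi1, an older symbol of Spi1, had counts of 30, 0, 3, 1 and 2 in mutants 1 to 5, against 5, 3, 14 and 22 in controls 1 to 4, and was not tested. Of these counts the highest was in mutant 1 and the next in control 4. The row Emr1, an older symbol of Adgre1, the F4/80 antigen of mouse macrophages, had 3.75, 0.270, 1.21, 1.61 and 0.401 CPM in mutants 1 to 5, against 4.1, 3.66, 2.93 and 5.36 CPM in controls 1 to 4. Its mutants were below the controls except mutant 1, its log2 fold change was -1.45 (standard error 0.63, edgeR adjusted p = 0.0955), and without mutant 1 it was -2.20 (edgeR adjusted p = 0.0127). These 2 rows were not counted among the members.

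Among the Fc receptors and their signalling adaptors, Fcer1g was the closest to a call. It encodes the gamma chain that carries an activating motif for Fc receptors. Fcer1g had 8.84, 0.539, 1.67, 2.34 and 2.54 CPM in mutants 1 to 5, against 7.79, 7.90, 8.67 and 12.0 CPM in controls 1 to 4. Mutant 1 lay within the control range and mutants 2 to 5 below it. Its log2 fold change was -1.49 (standard error 0.60, edgeR adjusted p = 0.0784) with all libraries and -2.35 (edgeR adjusted p = 0.00430) without mutant 1, and DESeq2 called it with all libraries (log2 fold change -1.60, DESeq2 adjusted p = 0.0331). Fcgr3, a low-affinity receptor for IgG, had 12.7, 0, 2.12, 0 and 1.47 CPM in mutants 1 to 5, against 2.19, 3.95, 2.69 and 9.61 CPM in controls 1 to 4, from 0 counts in mutants 2 and 4 to 105 counts in mutant 1. Its log2 fold change was -0.49 (standard error 1.14, edgeR adjusted p = 0.760), and reads of its close relative Fcgr2b may be shared with it. Tyrobp, the adaptor DAP12 that pairs with Trem2, had counts of 22, 0, 3, 1 and 5 in mutants 1 to 5, against 10, 9, 7 and 32 in controls 1 to 4. The high-affinity IgG receptor gene Fcgr1 had at most 7 counts in a library and Trem2, a lipid-sensing receptor, at most 5, and these 3 genes were not tested.

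Ptprc and Csf1r were highest in mutant 1 and control 4, and edgeR called no surface receptor with all 9 libraries. Ptprc, the pan-leukocyte phosphatase CD45, had 7.99, 0.404, 2.58, 0.293 and 1.20 CPM in mutants 1 to 5, against 3.14, 2.34, 4.1 and 7.71 CPM in controls 1 to 4. Both high libraries were nearly equal, mutants 2 and 4 were near 0, and the log2 fold change was -0.78 (standard error 0.82, edgeR adjusted p = 0.476), or -1.96 (edgeR adjusted p = 0.0440) without mutant 1. Csf1r, the receptor for the growth factors CSF1 and IL-34, had 6.05, 0.539, 1.67, 0.731 and 0.535 CPM in mutants 1 to 5, against 1.09, 0.439, 1.52 and 5.81 CPM in controls 1 to 4. The groups overlapped fully, and the log2 fold change was -0.22 (standard error 0.89, edgeR adjusted p = 0.863). Csf2rb, the beta subunit shared by the receptors for GM-CSF, IL-3 and IL-5, had 10.1, 0, 1.52, 0.146 and 0.535 CPM in mutants 1 to 5, against 1.23, 4.1, 2.23 and 4.14 CPM in controls 1 to 4. Its range in mutants enclosed all controls, and its log2 fold change was -0.23 (standard error 1.10, edgeR adjusted p = 0.885), or -2.41 (edgeR adjusted p = 0.0452) without mutant 1. Reads of its close paralog Csf2rb2 may be shared with it.

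Mrc1, the mannose receptor CD206, differed in order. It had 2.66, 2.43, 1.52, 2.78 and 1.34 CPM in mutants 1 to 5, against 0.273, 1.17, 2.11 and 0.671 CPM in controls 1 to 4, and its log2 fold change was 1.01 (standard error 0.53, edgeR adjusted p = 0.158). All 5 mutants exceeded controls 1, 2 and 4, and 2 of them lay below control 3, and the level was no higher in mutant 1 than in mutant 4. The integrin gene Itgam (CD11b) had counts of 7, 0, 2, 2 and 5 in mutants 1 to 5, against 4, 7, 4 and 38 in controls 1 to 4, with the single high value in control 4. Itgax (CD11c), the fractalkine receptor gene Cx3cr1 and the monocyte chemokine receptor gene Ccr2 had at most 6, 4 and 2 counts in any library. Cd163, a scavenger receptor for haemoglobin complexes, had 0 counts in all 9 libraries, which allows up to 0.335 to 0.455 CPM per library (3 counts, counting error only). Differences in these genes were not detectable at this depth.

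MHC class II genes had log2 fold changes below 0, and edgeR called none of them with all libraries. Cd74, the invariant chain that guards the peptide groove of class II molecules, had 80.0, 52.3, 60.4, 99.3 and 18.7 CPM in mutants 1 to 5, against 77.4, 70.7, 59.0 and 123 CPM in controls 1 to 4. The groups overlapped, mutant 5 was the lowest of all libraries, and the log2 fold change was -0.41 (standard error 0.40, edgeR adjusted p = 0.451). H2-Aa, one alpha chain gene of class II, had 2.91, 2.02, 2.88, 4.54 and 1.07 CPM in mutants 1 to 5, against 7.66, 3.95, 4.57 and 5.36 CPM in controls 1 to 4. Mutant 4 alone reached into the control range. Its log2 fold change was -1.0 (standard error 0.40, edgeR adjusted p = 0.0736), it was called without mutant 4, at -1.33 (edgeR adjusted p = 0.0354), and DESeq2 called it with all libraries (log2 fold change -1.11, DESeq2 adjusted p = 0.0298). Its partner H2-Ab1, which encodes a beta chain, had 12.5, 5.12, 5.76, 19.5 and 2.94 CPM in mutants 1 to 5, against 19.5, 15.1, 14.5 and 19.8 CPM in controls 1 to 4, a log2 fold change of -0.91 (standard error 0.47, edgeR adjusted p = 0.154), and without mutant 4 -1.43 (edgeR adjusted p = 0.0307). H2-Eb1, another beta chain gene, had a log2 fold change of -0.53 (standard error 0.57, edgeR adjusted p = 0.482) and ranged from 0.669 to 5.71 CPM in mutants and from 2.34 to 4.92 CPM in controls. In all 4 genes mutant 4 was the highest and mutant 5 the lowest mutant, whereas in the C1q genes, Fcgr3 and Fcer1g mutant 1 was the highest and mutant 2 the lowest or level with the lowest.

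Ctss, which encodes the protease cathepsin S that trims the invariant chain, followed the C1q genes rather than the class II genes. It had 24.3, 0.809, 4.1, 2.49 and 2.14 CPM in mutants 1 to 5, against 7.66, 6.88, 6.21 and 19.3 CPM in controls 1 to 4. Mutant 1 exceeded every control, the other 4 mutants lay below all controls, and the log2 fold change was -0.56 (standard error 0.85, edgeR adjusted p = 0.628) with mutant 1 and -2.08 (edgeR adjusted p = 0.0172) without it.

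Among effector genes of phagocytes Lyz2 had the widest spread between libraries. Lyz2, the lysozyme gene of myeloid cells, had 33.4, 0, 5.76, 2.05 and 3.75 CPM in mutants 1 to 5, against 4.78, 3.66, 4.92 and 13.3 CPM in controls 1 to 4. The mutants ran from 0 counts in mutant 2 to 276 in mutant 1, the widest range among the tested genes relative to the control mean, and the log2 fold change was 0.43 (standard error 1.06, edgeR adjusted p = 0.768) with all libraries and -1.22 (edgeR adjusted p = 0.268) without mutant 1. Its near-identical neighbour Lyz1, the lysozyme of Paneth cells, had 2 counts in mutant 1 and 0 elsewhere, and reads of the pair may be shared. Cybb, the catalytic subunit of the phagocyte NADPH oxidase, had 14.3, 1.35, 5.46, 2.49 and 2.27 CPM in mutants 1 to 5, against 8.34, 12.7, 7.50 and 9.95 CPM in controls 1 to 4. Mutant 1 was the highest library and mutants 2 to 5 lay below all controls, and the log2 fold change was -0.89 (standard error 0.60, edgeR adjusted p = 0.269), or -1.74 (edgeR adjusted p = 0.0126) without mutant 1.

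Laptm5, a lysosomal membrane protein of blood cells, had counts of 62, 0, 10, 5 and 3 in mutants 1 to 5, against 3, 7, 14 and 43 in controls 1 to 4 and was not tested. Mpeg1, the pore-forming protein perforin-2, had counts of 12, 3, 0, 20 and 7 in mutants 1 to 5, against 4, 2, 4 and 17 in controls 1 to 4, and Aif1, the microglial and macrophage protein IBA1, had counts of 15, 1, 4, 5 and 1 in mutants 1 to 5, against 7, 7, 6 and 7 in controls 1 to 4. As for Lyz2, mutant 1 and control 4 were highest for Laptm5 and mutant 2 was at 0. Mpeg1 was highest in mutant 4 and control 4.

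Lymphocyte and neutrophil markers were near the limit of detection. Cd79a, a signalling chain of the B cell receptor, had 3.03, 0.404, 1.82, 1.17 and 2.54 CPM in mutants 1 to 5, against 1.23, 2.05, 1.05 and 0.782 CPM in controls 1 to 4, with fully overlapping groups and a log2 fold change of 0.50 (standard error 0.55, edgeR adjusted p = 0.491). Cd3e and Cd3g, chains of the T cell receptor complex, had at most 3 and 4 counts in a library, and Nkg7, a granule protein of cytotoxic cells, at most 3. S100a8 and S100a9, which together form the neutrophil protein calprotectin, had at most 19 and 14 counts. S100a8 had counts of 5, 1, 4, 0 and 0 in mutants 1 to 5, against 0, 5, 19 and 13 in controls 1 to 4, and S100a9 counts of 0, 0, 1, 0 and 6 in mutants 1 to 5, against 4, 3, 7 and 14 in controls 1 to 4. Both stayed at 6 counts or fewer in all mutants, and neither was tested.

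Compared per kilobase of exon, 3 genes stood above the rest of the members in mutants, and in controls C1qa exceeded Lgals3. Cd14 reached 225 ± 72.5 in the 5 mutants and 117 ± 112 in the 4 controls (± SD), Cd74 37.0 ± 18.1 in the 5 mutants and 49.1 ± 16.6 in the 4 controls (± SD) and Lgals3 33.4 ± 10.1 in the 5 mutants and 12.6 ± 5.54 in the 4 controls (± SD), in CPM per kb of exon. The myeloid receptors were far lower, with Csf1r at 0.330 ± 0.410 in the 5 mutants and 0.384 ± 0.422 in the 4 controls (± SD) and Ptprc at 0.136 ± 0.175 in the 5 mutants and 0.236 ± 0.129 in the 4 controls (± SD). Cd14 and Cd74 had the highest means in both genotypes, followed by Lgals3 in mutants and by C1qa in controls. In the 4 controls C1qa, at 17.4 ± 5.87 (± SD), overlapped with Lgals3 within 1 SD. Set against the name of the group, Cd14, Cd74 and Lgals3 are genes that other cell types can also express. The cells behind these levels were not tested. Tyrobp, Laptm5, Aif1 and the lymphocyte genes were near the detection limit in several libraries.

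Markers of vascular and stromal cells shared their highest and lowest mutant and their highest control with the summed 34 immune genes. The endothelial list summed to 117, 8.90, 26.2, 94.8 and 72.2 in mutants 1 to 5 and 78.2, 62.0, 145 and 209 in controls 1 to 4, in CPM, and the list of stellate cells and fibroblasts to 351, 5.26, 75.7, 115 and 61.1 in mutants 1 to 5 and 157, 145, 185 and 308 in controls 1 to 4. Mutant 1 was the highest and mutant 2 the lowest mutant in both, and control 4 the highest control. The other libraries did not keep the same order. Control 3 had the lowest immune sum of the controls, at 99.7 CPM, but lay above controls 1 and 2 in both lists. Mutant 1 had the highest immune sum of all libraries, while its endothelial sum lay below controls 3 and 4. The hormone genes were lowest in mutant 2 as well, at 853 CPM, against 76824 CPM in mutant 1, and the acinar list was highest there, at 382649 CPM. The part of these cell types in the immune gene values was not tested.

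**Figure D4:**
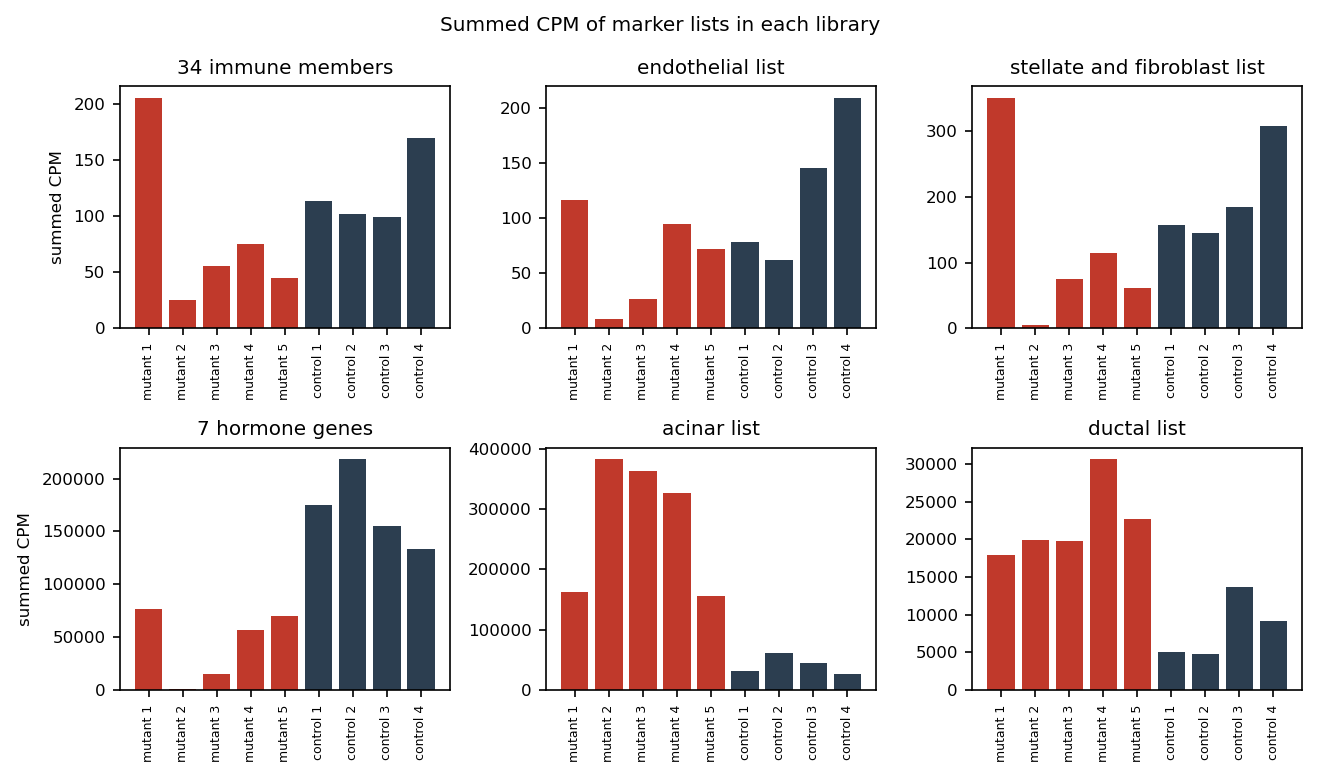
Summed CPM (vertical axis, linear, one scale per panel) in each mutant (left, red) and control (right, dark) library for the 34 immune members other than Cd14, Cd74 and Lgals3 and for 5 lists of other cell types. The immune, endothelial and stellate sums are lowest in mutant 2 and, among controls, highest in control 4, whereas the acinar and ductal sums are higher in every mutant than in any control.

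Wider lists of immune genes held calls in both directions. Over 14 lists, 94 genes that are not members were tested, of which 18 were called higher and 9 lower, against 20.6% higher and 11.8% lower over all genes, with a median log2 fold change of -0.18. Among 14 surface and secreted genes of macrophages and monocytes 2 were lower, Cd86, a co-stimulatory ligand of T cells (-1.80, edgeR adjusted p = 0.0317), and Sirpa, the receptor for CD47 (-1.86, edgeR adjusted p = 0.0451). Both were lost without any 1 of controls 1 to 4 or mutants 3 to 5 (highest edgeR adjusted p = 0.0704 and 0.0957). Cd86 was also lost without mutants 2 and 3, at -1.43 (edgeR adjusted p = 0.0941). Of 6 colony stimulating factors and receptors 1 was lower, Csf1, the ligand of Csf1r, at 21.2 ± 8.65 CPM in mutants and 43.4 ± 18.8 CPM in controls (SD, n = 5 and 4). Its log2 fold change was -1.03 (standard error 0.35, edgeR adjusted p = 0.0453), and the call was lost without control 1, 3 or 4 or any of mutants 2 to 5 (highest edgeR adjusted p = 0.130), and without mutants 2 and 3 it stood at -0.80 (edgeR adjusted p = 0.146).

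Calls in the other myeloid lists are read against the same shares over all genes, 20.6% higher and 11.8% lower. In the list of lipid-associated and activated macrophage genes 5 of 22 were higher and 1 lower, among them the lysosomal protease genes Ctsl (2.33, edgeR adjusted p = 0.00172) and Ctsd (1.41, edgeR adjusted p = 0.00243) and the fatty acid binding protein gene Fabp5 (1.91, edgeR adjusted p = 0.00232). Ctsl had 13522 to 28070 counts in mutants and 3706 to 6121 in controls. Of 9 myeloid transcription factors 3 were higher (4 genes had an unadjusted p under 0.05), Cebpa (2.31), which liver and fat also use, the oxysterol receptor gene Nr1h3 (1.36) and Gata6 (1.17), also a factor of the pancreas (edgeR adjusted p = 0.00242, 0.00758 and 0.00983). Of 7 genes of class II processing 2 were higher, the thiol reductase gene Ifi30 (1.19, edgeR adjusted p = 0.00326) and Rfxank (0.48, edgeR adjusted p = 0.0277). Rfxank, a subunit of the factor that switches on class II genes, was lost with RLE scaling, at 0.37 (edgeR adjusted p = 0.0689), with DESeq2, and without control 1, 2 or 3 or any of mutants 2 to 5 (highest edgeR adjusted p = 0.115). Acinar genes were higher in the same mutant libraries, and their part in these results was not tested.

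Pan-leukocyte and signalling genes were called in both directions, where 20.6% of all tested genes were called higher and 11.8% lower. Of 11 pan-leukocyte genes 4 were higher and 1 lower, the actin bundling protein gene Lcp1 (1.16), Cytip (2.01) and Gmfg (1.52) being the 3 of lowest p, all higher (edgeR adjusted p = 0.00256, 0.00604 and 0.0105). The median log2 fold change of the 11 was 0.25. Summed over its 19 rows, the list stood at 139 to 277 CPM in mutants and 204 to 322 CPM in controls. Which cells these reads came from was not tested. Of 9 genes of signalling through activating motifs and Src kinases 2 were higher, the phospholipase gene Plcg2 (1.14, edgeR adjusted p = 0.00414) and the adaptor gene Pik3ap1 (2.37, edgeR adjusted p = 0.0471), and 1 was lower, the phosphatase gene Ptpn6 (-0.54, edgeR adjusted p = 0.0290). Pik3ap1 was lost with RLE scaling, at 2.27 (edgeR adjusted p = 0.0527), and stood at 0.75 (edgeR adjusted p = 0.368) without mutants 2 and 3. It was also lost without control 1, 2 or 3 or mutant 2 or 3, and Ptpn6 without control 1 or 4 or mutant 3 or 5 (highest edgeR adjusted p = 0.116 and 0.0929). Without mutants 2 and 3 Ptpn6 stood at -0.54 (edgeR adjusted p = 0.0911). Of 2 tested NADPH oxidase partners 0 were called, with 1 at an unadjusted p under 0.05, Cyba.

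Lists of other immune cells rested on few tested genes. Of 3 tested T cell genes 1 was lower, Skap1 (-2.22, edgeR adjusted p = 0.0372), an adaptor of T cell adhesion. Skap1 had 8.23, 0.404, 1.21, 14 and 10.2 CPM in mutants 1 to 5, against 29.0, 42.0, 28.7 and 28.1 CPM in controls 1 to 4. In controls 1 to 4 Cd3d and Cd3e had 0 counts and Cd3g had 4, 2, 2 and 2 counts. Of the 17 rows of the T cell list 8, 9, 10 and 8 had 0 counts in controls 1 to 4. The Skap1 call was lost without any 1 of the controls, mutant 3 or mutant 5 (highest edgeR adjusted p = 0.0741). The chemokine gene Ccl5, the only tested gene of the NK cell list, was lower (-1.30, edgeR adjusted p = 0.0134), while Klrb1c, Ncr1, Klrd1 and Klre1 had 0 counts in all libraries. Il1r2, the decoy receptor of interleukin 1, was the 1 of 4 tested neutrophil genes called lower, with counts of 30, 0, 3, 5 and 8 in mutants 1 to 5, against 41, 67, 55 and 92 in controls 1 to 4. Its log2 fold change was -2.72 (standard error 0.75, edgeR adjusted p = 0.0217), and without control 4 it was -2.58 (edgeR adjusted p = 0.0522). Of 2 tested mast cell genes 1 was higher, Kit (2.02, edgeR adjusted p = 0.0148), the stem cell factor receptor, and the other stood at -1.20 without a call. Kit was lost without mutants 2 and 3, at 1.10 (edgeR adjusted p = 0.0525). The mast cell genes Mcpt4, Cma1, Tpsb2, Fcer1a and Ms4a2 had 0 counts in all libraries. Of 3 tested dendritic cell genes 1 was called, Zbtb46, a factor of classical dendritic cells, which was higher (2.47, edgeR adjusted p = 0.00630). The log2 fold changes of the other 2 were below 0, the lowest at -0.83. The dendritic cell genes Xcr1 and Clec9a had at most 1 count in a library. The 1 tested gene of the B cell and plasma cell list was not called.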

How the data were processed

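The authors deposited unnormalized whole-number counts, 1 row per gene symbol. For the project as a whole the submitters' processing notes list mm10 and, among other tools, STAR, RSEM, HOMER and DESeq2, with no role for any. The aligner, the counter, the annotation and any strand setting behind this table were not given in the sources used here. Close paralogs may share reads. No row lacked a gene name. Groups came from sample titles. The least different pair of libraries of a group differed by a chi-square of 18.3 per degree of freedom, so none was counted as a copy.

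The main comparison, mutant over control, used the quasi-likelihood test of edgeR 4.0.16 in R 4.3.3 over all genes after filterByExpr (12402 genes) and TMM scaling, two-sided, calling genes at a Benjamini-Hochberg adjusted p under 0.05. A standard error is the unshrunken log2 fold change divided by the square root of F. The genes and lists were chosen with earlier results of these data known, and no list was tested as a set. All members were accounted for, described in full where called or where groups did not overlap, and up to 3 called genes of lowest p were named per wider immune list. Alternatives were RLE scaling, TMM without hormone and acinar genes, no filter, a minimum of 1 CPM in 4 libraries, DESeq2 1.42.0, limma-voom with quality weights (limma 3.58.1), the replicate number as a block, endocrine or acinar score as a covariate, no mutants 2 and 3, and each library left out. RLE moved the median log2 fold change of all genes to -0.06, against 0.04 with TMM, and the share of calls that were higher to 51.8%, against 63.6%. On simulated data (12145 genes) the pipeline recovered 26% of 100 genes changed 2-fold and 68% of 100 genes changed 4-fold. The changed genes had a mean above 1 CPM. Far more genes, 4022 of 12402, were called in the data. The simulated shares therefore do not give the power of the main comparison or for the members. Coordinates and promoters are RefSeq's (GRCm38.p6), and exon lengths are of GENCODE M21.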

Additional observations from a re-analysis of the deposited data

Results flagged for a closer look

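Single libraries stood far from the rest of their group in 14 of 56 groups of values examined (the 20 tested genes and 8 sums, in each genotype), by Dixon's criterion on CPM. Chance flags about 1 in 20 where values are normally distributed. Untransformed CPM of genes with low counts need not be, so the chance rate here is not known. Genes and sums share libraries, so these are not independent.

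Mutant 1 was far above the other mutants for Csf1r (6.05 CPM, next 1.67), Csf2rb (10.1, next 1.52), Fcgr3 (12.7, next 2.12), Fcer1g (8.84, next 2.54), C1qb (7.99, next 2.12), C1qc (7.99, next 1.06), Ctss (24.3, next 4.1) and Lyz2 (33.4, next 5.76). The same library was far above the others in the summed CPM of Fc receptors, adaptors and Trem2 (25.3, next 5.75) and of the 34 members other than Cd14, Cd74 and Lgals3 (206, next 74.9).

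Control 4 was far above the other controls for Ctss (19.3 CPM, next 7.66), Lyz2 (13.3, next 4.92) and the summed Fc receptors, adaptors and Trem2 (26.3, next 13.5). Control 1 was far above the other controls for C1qa (27.2 CPM, next 15.4). These libraries were not set apart by labels, and the causes were not tested.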

How the results depend on the processing

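Lgals3 stayed higher and called under all alternatives except the acinar score as a covariate, of which genotype explained 92.4%. There edgeR called 0 genes higher and 0 lower among all genes (474 at an unadjusted p under 0.05), 0 members higher, and the members' median log2 fold change was 3.04. With the endocrine score it was 0.84, with 468 genes higher and 58 lower. DESeq2 called 2582 genes lower and limma-voom 2294, and of the members 2 and 6, against 1462 and 0 in edgeR. The replicate block gave 1658 genes higher and 774 lower, and left the members' calls as they were, while Ccl5, Cd86, Csf1, Gata6, Il1r2, Kit, Pik3ap1, Ptpn6, Rfxank and Skap1 missed the threshold. Libraries of equal number were correlated at -0.05 to 0.18 and 1 of 8 correlated best with its own number. No pairing by number was thus seen, but the check cannot exclude one, since the libraries differ widely in hormone and acinar shares. Without mutants 2 and 3 there were 1355 higher. Leaving out 1 library gave 1579 to 2702 genes higher and 699 to 1865 lower, 1 to 1 members higher and 0 to 8 lower, and member medians of -1.22 to -0.09.

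The sign turned with the acinar score for C1qa (3.06), C1qb (3.70), C1qc (6.31), Csf1r (5.68), Csf2rb (6.63), Ctss (5.93), Cybb (2.30), Fcer1g (2.88), Fcgr3 (7.72), Mrc1 (-0.52), Ptprc (4.65), Cd86 (1.11), Sirpa (2.46), Ctsl (-0.21), Fabp5 (-0.14), Pik3ap1 (-1.85), Nr1h3 (-0.091), Gmfg (-1.10), Csf1 (1.43), Il1r2 (2.47), Kit (-0.71), Zbtb46 (-0.15) and Emr1 (1.38). It turned with the endocrine score for C1qa (0.52), C1qb (0.86), C1qc (0.95), Csf1r (0.83), Csf2rb (2.00), Ctss (1.07), Cybb (0.23), Fcgr3 (1.69), Ptprc (0.47), Sirpa (0.045) and Skap1 (0.013). Lyz2 turned with limma-voom (-0.98) and with the replicate block (-0.74), as did Csf1r with the block (0.029). Without mutants 2 and 3, Csf1r, Csf2rb and Fcgr3 stood at 0.077, 0.28 and 0.0060. With 1 library left out Csf1r (tested in 5 of 9 such fits), Csf2rb and Fcgr3 ran from -0.63 to 0.89, -2.41 to 0.054 and -2.36 to 0.17, and Lyz2 from -1.22 to 1.02. The causes were not tested. Depth limits the 17 untested members, whose highest count in a library was 62.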

Other observations

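Some plasma cell and myeloid genes outside the members differed widely between libraries. These genes were chosen after their values were seen. Igj, the older symbol of the immunoglobulin joining chain gene Jchain, had counts of 2717, 72, 622, 47 and 9 in mutants 1 to 5, against 47, 82, 89 and 628 in controls 1 to 4, and 2010001M09Rik, an older name of the plasma cell gene Mzb1, had counts of 111, 6, 17, 11 and 0 in mutants 1 to 5, against 3, 1, 3 and 15 in controls 1 to 4. Mmp8, a collagenase of neutrophils, had counts of 106, 0, 16, 0 and 0 in mutants 1 to 5, against 1, 2, 4 and 12 in controls 1 to 4, and Clec4n, the dectin-2 receptor gene, counts of 163, 0, 31, 4 and 0 in mutants 1 to 5, against 7, 2, 14 and 32 in controls 1 to 4. All 4 were highest in mutant 1 and, among controls, in control 4. Ltf, lactoferrin, had its highest count in control 4, with 49, 280, 267, 99 and 800 in mutants 1 to 5, against 49, 15, 75 and 3951 in controls 1 to 4.

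Mutant 3 lay close to a weighted sum of 2 other mutants. Over 12198 genes with at least 100 counts in all, 15% of mutant 1 plus 85% of mutant 2 gave the counts of mutant 3 with a median absolute log2 ratio of 0.138 (weights in steps of 0.05, 5 counts added), whereas the best pair for each other library gave 0.185 to 0.422. For mutant 2 the best fit was 100% of mutant 3. Among genes at 0 counts in mutant 2, mutant 3 had 38 counts of Lyz2 where the sum gives 42.1, 14 of Fcgr3 (16.0), 10 of Laptm5 (9.47), 39 of Mmp9 (38.6) and 16 of Mmp8 (16.2). C1qa had 7 counts where the sum gives 19.3, and Igj 622 where it gives 469. The cause was not tested, and without mutant 3 Lgals3 had a log2 fold change of 1.46 (edgeR adjusted p = 0.0235).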
